A study of Macaca mulatta with 16 samples.

Results

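The insulin-like growth factor (IGF) axis and the genes that go with growth in fetal life were followed in RNA sequencing of whole fetal lung from rhesus macaques exposed to intraamniotic lipopolysaccharide (LPS). The group held 10 genes taken by symbol: the ligands IGF1 and IGF2, the binding proteins IGFBP2, IGFBP3 and IGFBP5, the RNA-binding proteins IGF2BP1, IGF2BP2 and IGF2BP3, the let-7 regulator LIN28B and the chromatin protein HMGA2. Each of the 10 had 1 row among 22515 genes, and 9 passed the filter on low counts and entered the tests on 19199 genes. LIN28B did not, and is given by its counts.

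The 16 fetuses each gave 1 library from frozen lung. Preterm controls (4 fetuses, animals 092, 101, 113 and 209) were delivered untreated at 131 to 135 days of gestation, and term controls (2 fetuses, animals 200 and 201) untreated at 156 and 157 days. The LPS 16h group (4 fetuses, animals 026, 029, 035 and 038) received 1 mg of intraamniotic LPS, an endotoxin of Escherichia coli, and was delivered 16 hours later at 130 or 131 days, and the LPS 5d group (3 fetuses, animals 239, 240 and 242) received the same dose and was delivered 5 days later at 131 to 134 days. In the LPS + Beta-Ac group (3 fetuses, animals 248, 249 and 255), the dam also received 0.125 mg/kg of intramuscular betamethasone-acetate (Beta-Ac), a slowly released corticosteroid, and delivery was 5 days later at 131 or 132 days. No saline-injected fetuses and no fetuses given Beta-Ac alone were analysed here, so the injection and the LPS cannot be told apart, nor can the part of Beta-Ac without LPS be given. The LPS 16h group also differed from the LPS 5d group in the age at treatment, 129 or 130 days against 126 to 129 days.

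IGF1 and IGF2 are secreted peptides that signal through the IGF1 receptor and the insulin receptor, and IGF2 is the ligand most linked to growth before birth. The IGF-binding proteins hold the ligands in tissue and plasma, where they can keep them from the receptor or release them to it after cleavage by proteases. IGF2BP1, IGF2BP2 and IGF2BP3 bind messenger RNAs, IGF2 mRNA among them, and control their stability and translation. LIN28B blocks the maturation of the let-7 microRNAs, and let-7 represses HMGA2 and other genes of fetal growth, so that these genes are usually high early in development and low in the adult.

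Library totals ran from 20169363 to 28348816 counts in 12 libraries and from 30596371 to 48052891 counts in the LPS 16h libraries, which also had the lowest scaling factors (0.857 to 0.92, against 0.995 to 1.12 elsewhere). Depth and the 16-hour exposure cannot be told apart. On the third principal component (9.48% of the variance), 4 libraries lay between -50.8 and -32, namely animals 029, 209, 200 and 240, and the other 12 between -7.51 and 38.7. For the differences printed below, values without those 4 are given where the side of the test changed. For term controls, which lose animal 200, only the fitted difference is then given, because the group left is too small for a test. The markers of alveolar type 2 cells, the surfactant-producing epithelium of the lung, were present in all libraries and summed to 6350 to 11000 CPM (the usual per-million measure of counts relative to the TMM-scaled library total) in the preterm controls and 9260 to 29500 CPM in the other groups. Myeloid markers summed to 97.5 to 210 CPM in the preterm controls, 201 to 313 in the term controls, 1690 to 2180 in the LPS 16h group, 159 to 203 in the LPS 5d group and 341 to 646 in the LPS + Beta-Ac group. In whole tissue, fewer cells of a type and less RNA per cell cannot be told apart.

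Across the 10 genes, IGFBP3, IGFBP5 and IGF2BP1 changed after the exposure, and the ligands passed no test. IGFBP3 rose 4.28-fold at 16 hours after LPS, and at 5 days 2 of 3 fetuses lay below the preterm controls and 1 within their range. IGFBP5 was lower in every group exposed to LPS, by 1.65-fold to 1.75-fold, and IGF2BP1 was higher at 16 hours and at 5 days, by 1.99-fold and 1.75-fold. The 5-day rise of IGF2BP1 did not pass in 10 of 17 alternative fits. The falls of IGFBP5 at 5 days and after LPS + Beta-Ac did not pass in 2 and 3 of 17. IGF2, IGFBP2, IGF2BP2 and IGF2BP3 passed the test in no comparison.

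**Figure D1:**
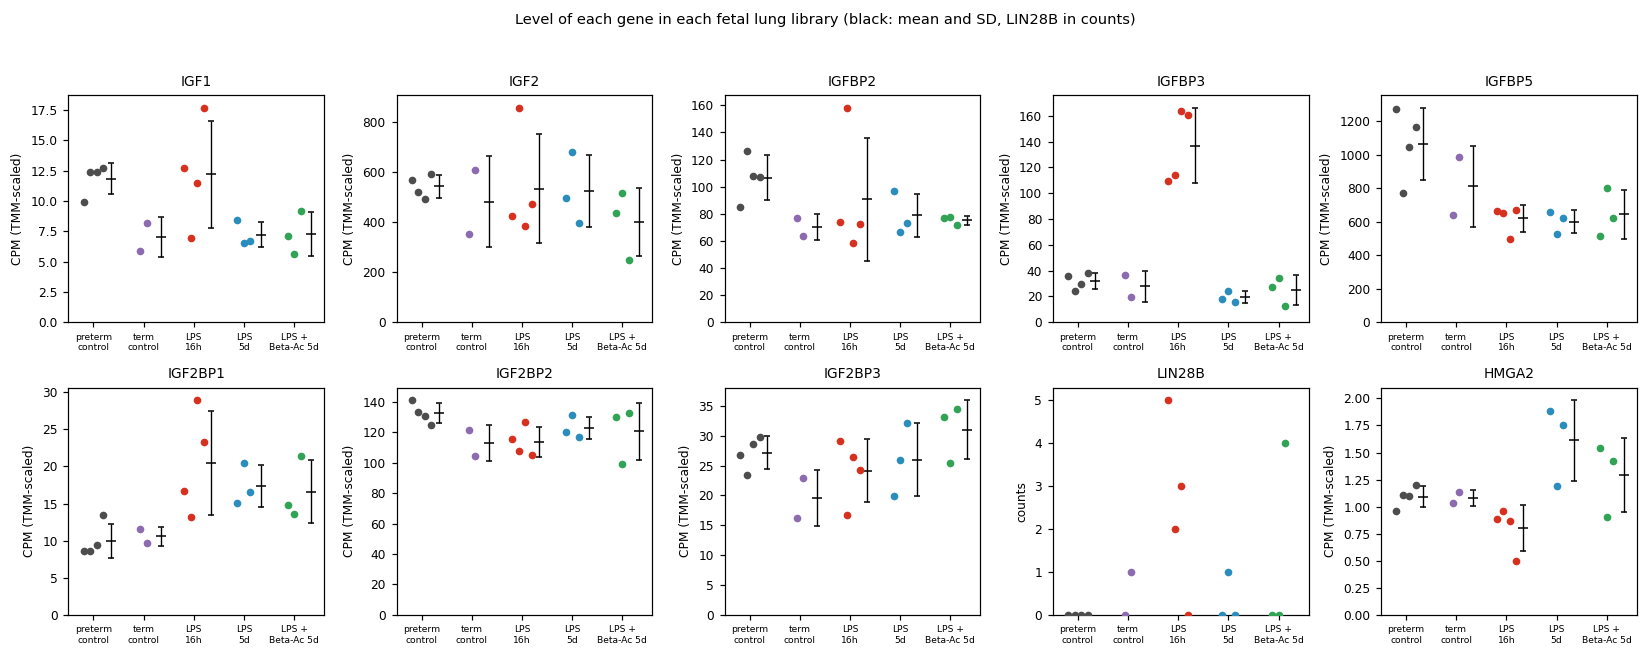
Level of the 10 genes in each of the 16 libraries, in CPM with TMM scaling (LIN28B in counts), by group on the x axis. Each point is 1 fetus, and the black dash and bar give the mean and SD of the group (not drawn for LIN28B). The 4 LPS 16h libraries of IGFBP3 (109 to 164 CPM) lie above all others (at most 38.2 CPM).

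A gene was called where the Benjamini-Hochberg adjusted p of limma was below 0.05 and the change was at least 2-fold, and it passed the test where the adjusted p alone was below 0.05. Against preterm controls, 1 of the 9 tested genes was called at 16 hours (IGFBP3, where 14.4% of all tested genes were called) and 3 passed the test (IGFBP3, IGFBP5 and IGF2BP1, where 38.3% of all genes passed). At 5 days after LPS, 0 were called (4.83% of all genes) and 2 passed (IGFBP5 and IGF2BP1, against 14.7% of all genes), with 4 at an unadjusted p below 0.05 in limma and 3 in limma-voom. After LPS + Beta-Ac, 0 were called (6.50% of all genes) and 1 passed (IGFBP5, against 17.3% of all genes), with 3 at an unadjusted p below 0.05 in either tool. In term controls, 0 were called (2.07% of all genes) and 0 passed (3.99% of all genes), with 1 gene at an unadjusted p below 0.05 both in limma and in limma-voom. Beside these background shares, the counts say nothing particular to the group. The exposed groups share the preterm controls, so their values are set side by side below and their likeness is not tested. Where groups are said not to overlap, this is a description, since 33.6% of all genes did not overlap between LPS 16h and preterm controls and 40% between LPS 16h and LPS 5d.

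Between the exposed groups, 1 of 9 was called in LPS 16h against LPS 5d (IGFBP3, where 14.6% of all genes were called), and 2 passed the test (IGFBP3 and HMGA2, against 35.0% of all genes). LPS + Beta-Ac against LPS 5d gave 0 of 9 called and 0 passing (0.104% of all genes under either rule), and 0 at an unadjusted p below 0.05 in limma and in limma-voom. The fitted differences of the 9 genes there ran from -0.42 (IGF2) to 0.27 (IGF2BP3) on the log2 scale. Against term controls, 0 of 9 were called in LPS 5d (0.0625% of all genes) and 0 in LPS + Beta-Ac (0.568% of all genes). At an unadjusted p below 0.05 there was 1 gene in each of these comparisons in limma, and limma-voom gave 0 and 1.

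**Figure D2:**
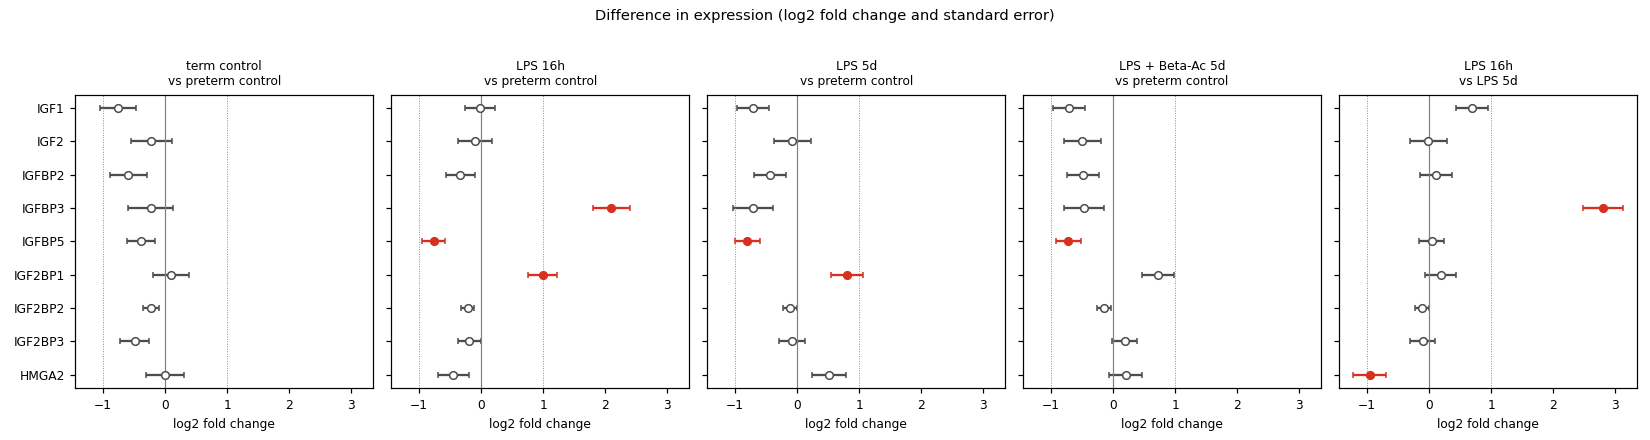
Log2 fold change (x axis) with its standard error for the 9 tested genes (y axis) in 5 comparisons. Filled red points have an adjusted p below 0.05, open points do not, and the dotted lines mark a 2-fold change. IGFBP3 stands at 2.10 in LPS 16h against preterm control and at 2.81 against LPS 5d.

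IGF1, the ligand that takes over growth control after birth, was measured at 9.89, 12.4, 12.4 and 12.7 CPM in the preterm controls and at 5.85 and 8.18 CPM in the term controls. In the LPS 16h group it was 12.7, 6.96, 11.5 and 17.7 CPM, in the LPS 5d group 8.42, 6.56 and 6.69 CPM, and after LPS + Beta-Ac 7.08, 5.61 and 9.17 CPM. Every term, LPS 5d and LPS + Beta-Ac fetus lay below the lowest preterm control, and the LPS 16h fetuses spread around the controls. Of all genes tested, 26.4%, 29.2% and 30.8% did not overlap between the preterm controls and these 3 groups. The differences did not pass the test across all genes: the log2 fold change was -0.76 ± 0.30 (SE) in term controls (adjusted p = 0.17), -0.71 ± 0.26 at 5 days (adjusted p = 0.082) and -0.72 ± 0.26 after LPS + Beta-Ac (adjusted p = 0.072). With only the groups compared in the fit, both 5-day values passed (adjusted p = 0.022 and 0.031), and the LPS + Beta-Ac value also did so without the 4 libraries apart on the third component (adjusted p = 0.046). LPS 16h exceeded LPS 5d by 0.69 ± 0.26 (adjusted p = 0.052), and by 0.93 (adjusted p = 0.0043) without animal 029, the lowest of its group, and by 0.86 (adjusted p = 0.018) without the 4 libraries.

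IGF2, the fetal growth factor transcribed from the paternal allele, passed no test. It was measured at 566, 521, 491 and 592 CPM in the preterm controls, at 353 and 609 CPM in the term controls, and at 424, 855, 382 and 470 CPM in the LPS 16h group. In the LPS 5d group it was 497, 679 and 395 CPM, and after LPS + Beta-Ac 435, 516 and 249 CPM. The group means were 542 ± 45.1 (SD, n = 4), 481 ± 180 (n = 2), 533 ± 218 (n = 4), 524 ± 144 (n = 3) and 400 ± 137 CPM (n = 3) in that order. The groups overlapped throughout, and the spread within each exposed group was wider than in the preterm controls. The lowest fitted value was -0.50 ± 0.30 after LPS + Beta-Ac (adjusted p = 0.28).

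IGFBP2, a binding protein typical of fetal tissue, was 85.3, 127, 108 and 107 CPM in the preterm controls and 77.2 and 63.5 CPM in the term controls. It was 73.7, 158, 58.2 and 72.6 CPM in the LPS 16h group, 96.5, 66.4 and 73.5 CPM in the LPS 5d group and 77.1, 77.5 and 71.4 CPM after LPS + Beta-Ac. Apart from animals 029 and 239, all exposed and term fetuses lay below the lowest preterm control. The log2 fold changes of -0.59 ± 0.29 (term), -0.33 ± 0.24 (16 hours), -0.44 ± 0.26 (5 days) and -0.49 ± 0.26 (LPS + Beta-Ac) did not pass the test (adjusted p = 0.29, 0.29, 0.29 and 0.22). Animal 029 decided the value at 16 hours: without it the difference was -0.61 (adjusted p = 0.0052), and without the 4 libraries -0.63 (adjusted p = 0.0077). The LPS + Beta-Ac value passed with only the groups compared in the fit (adjusted p = 0.031) and without the 4 libraries (adjusted p = 0.047).

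IGFBP3, the main carrier of the IGFs in plasma, which also binds them in tissue, had the largest fitted change of the 9 tested genes. It was measured at 35.9, 23.9, 29.6 and 38.2 CPM in the preterm controls, and at 109, 114, 164 and 160 CPM in the LPS 16h group. The lowest LPS 16h fetus lay 1.52 log2 units above the highest control. The change of 2.10 ± 0.30 on the log2 scale was called (adjusted p = 7e-05), and it stayed between 1.89 and 2.20 under the other scalings, filters and models and with any 1 animal left out, and was 2.27 without the 4 libraries apart on the third component.

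In the LPS 5d group IGFBP3 was 18.2, 24.4 and 15.8 CPM, after LPS + Beta-Ac 27.6, 34.6 and 12.2 CPM, and in the term controls 36.4 and 19.5 CPM. Of these 8 fetuses, 4 lay below the lowest preterm control and 4 within the controls' range. Against preterm controls the log2 fold change was -0.71 ± 0.32 at 5 days (adjusted p = 0.17, and 0.048 with only the 2 groups in the fit), -0.47 ± 0.32 after LPS + Beta-Ac (adjusted p = 0.36) and -0.24 ± 0.36 in term controls (adjusted p = 0.79). The 16-hour and 5-day groups differed 6.99-fold in IGFBP3 (log2 fold change 2.81 ± 0.32, adjusted p = 1.2e-05), the highest LPS 5d fetus being at 24.4 CPM. Myeloid markers also summed highest in the 4 LPS 16h libraries, with 8 of 8 higher than in preterm controls and 6 passing (38.3% of all genes). Their part in the IGFBP3 level was not tested.

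IGFBP5, a binding protein that attaches to the extracellular matrix, went the other way and did not return by 5 days. It was measured at 1272, 770.2, 1044 and 1165 CPM in the preterm controls. It was 662, 650.3, 496 and 668 CPM in the LPS 16h group, 656, 525 and 620.2 CPM in the LPS 5d group and 512, 802 and 619 CPM after LPS + Beta-Ac. All exposed fetuses but animal 249 lay below the lowest control, and the term controls, at 641 and 983 CPM, lay on both sides of it.

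IGFBP5 fell by 0.77 ± 0.18 on the log2 scale at 16 hours (adjusted p = 0.0041), by 0.81 ± 0.20 at 5 days (adjusted p = 0.014) and by 0.72 ± 0.20 after LPS + Beta-Ac (adjusted p = 0.02). None of the 3 changes reached 2-fold. The term value of -0.40 ± 0.22 did not pass (adjusted p = 0.37). The 5-day value did not pass without animal 240 (-0.71, adjusted p = 0.072) and without the 4 libraries apart on the third component (-0.66, adjusted p = 0.08). The LPS + Beta-Ac value did not pass without animal 092 (-0.63, adjusted p = 0.063), 248 (-0.57, adjusted p = 0.11) or 255 (-0.71, adjusted p = 0.058). Of 8 mesenchyme markers, 7 were lower at 16 hours (6 passing), 7 at 5 days (0 passing) and 8 after LPS + Beta-Ac (3 passing). In term controls 8 were lower (3 passing). Of all genes, 38.3%, 14.7%, 17.3% and 3.99% passed in these comparisons. The markers' summed level was 11700 to 20200 CPM in the preterm controls and 7170 to 7300 CPM in the term controls. In the 3 exposed groups it was 8020 to 11600, 7460 to 13500 and 7130 to 9970 CPM. The part of these markers in the IGFBP5 level was not tested.

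The count ratio of IGFBP3 to IGFBP5 within a library, which no scaling between libraries can change, was higher in every 16-hour fetus than in any other. It was 0.165 to 0.331 in the LPS 16h group, against 0.0282 to 0.0328 in the preterm controls, 0.0198 to 0.0567 in the term controls, 0.0256 to 0.0465 in the LPS 5d group and 0.0197 to 0.0539 after LPS + Beta-Ac. The ratio was chosen after the values were seen and is a description.

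**Figure D3:**
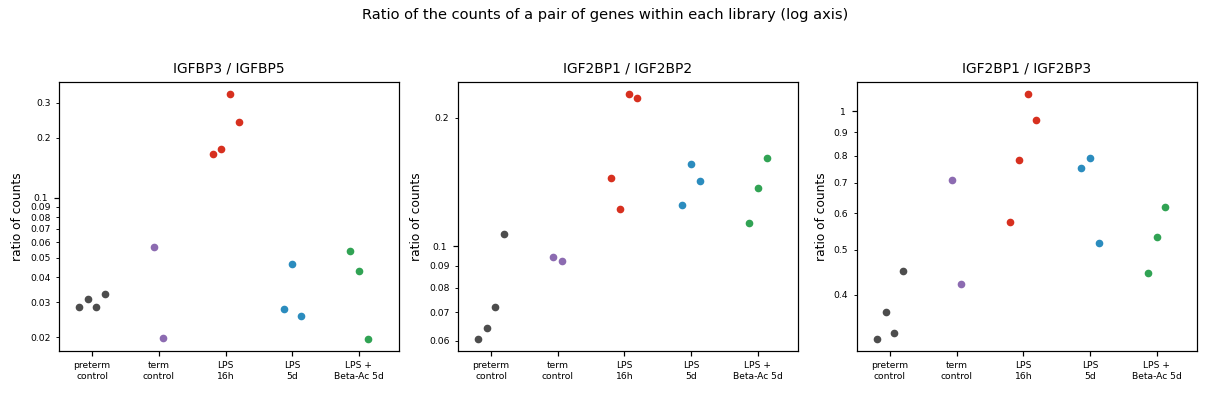
Ratio of the counts of 2 genes within each library, on log axes, by group on the x axis, with each point 1 fetus. IGFBP3 to IGFBP5 is at least 0.165 in LPS 16h and at most 0.0567 elsewhere, and IGF2BP1 to IGF2BP2 is at least 0.113 in every exposed fetus and at most 0.107 in the controls.

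Of the other binding proteins and carriers, 5 genes were tested. IGFBP4, which holds IGFs in tissue until it is cleaved, was 335, 349, 385 and 321 CPM in the preterm controls and 693, 1046, 743 and 764 CPM in the LPS 16h group. It rose by 1.21 ± 0.13 on the log2 scale at 16 hours (adjusted p = 3.8e-06) with no overlap between groups. In the LPS 5d group it was 272, 261 and 233 CPM, all below the controls, with a log2 fold change of -0.44 ± 0.14 (adjusted p = 0.046) that did not pass in 10 of 17 alternative fits. Term controls differed from preterm controls by -0.52 (adjusted p = 0.084), and by -0.69 without the 4 libraries apart on the third component. LPS 5d differed from term controls by 0.08 (adjusted p = 0.9). The 16-hour level exceeded the 5-day level by 1.65 ± 0.14 (adjusted p = 5.1e-07).

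IGFBP7, a binding protein of low affinity for the IGFs, was 236 to 357 CPM at 16 hours, 89.4 to 164 CPM at 5 days and 195 to 244 CPM in the preterm controls. It fell at 5 days by 0.81 ± 0.21 (adjusted p = 0.016), which did not pass without animal 242 (-0.58, adjusted p = 0.086), and was higher at 16 hours than at 5 days by 1.24 ± 0.21 (adjusted p = 0.00028). IGFALS, which forms the plasma complex with IGFBP3, was 2.33 to 4.11 CPM at 16 hours and 4.75 to 7.02 CPM at 5 days, a difference of -1.12 ± 0.32 (adjusted p = 0.013) that was lost without animal 240 (-1.01, adjusted p = 0.058). At 16 hours, then, 1 of these 5 genes passed against controls and was higher, at 5 days 2 passed and were lower, and after LPS + Beta-Ac and in term controls 0 passed, beside 38.3%, 14.7%, 17.3% and 3.99% of all genes.

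Among the 7 proteases and stanniocalcins that act on the binding proteins, 2 passed at 16 hours (1 higher, 1 lower), 2 at 5 days (both lower), 1 after LPS + Beta-Ac (lower) and 0 in term controls, beside 38.3%, 14.7%, 17.3% and 3.99% of all genes. PAPPA, which cleaves IGFBP4, was 0.392, 1.8, 1.6 and 1.89 CPM in the preterm controls and 4.76, 3.25, 5.48 and 5.15 CPM in the LPS 16h group. It rose by 1.84 ± 0.42 (adjusted p = 0.0029) with no overlap between the groups. In the LPS 5d group PAPPA was 1.99, 1.92 and 1.85 CPM, and the difference between the time points was 1.22 ± 0.45 (adjusted p = 0.048), which did not pass in 11 of 17 alternative fits (0.074 without the 4 libraries).

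STC1, a stanniocalcin that inhibits PAPPA, moved at the later time. It was 16.2, 25.1, 14.3 and 14.9 CPM in the preterm controls and 20.4, 23.6, 18 and 16.7 CPM at 16 hours, then 5.37, 6.1 and 11.8 CPM in the LPS 5d group and 7.94, 8.87 and 9.55 CPM after LPS + Beta-Ac. STC1 fell by 1.23 ± 0.27 at 5 days (adjusted p = 0.0065) and by 0.96 ± 0.27 after LPS + Beta-Ac (adjusted p = 0.021), and was higher at 16 hours than at 5 days by 1.41 ± 0.27 (adjusted p = 0.00074). The LPS + Beta-Ac value did not pass without animal 101 (-0.78, adjusted p = 0.063), 248 or 249. ADAM12, a membrane protease that cleaves IGFBP3 and IGFBP5, was 6.86, 1.39, 2.33 and 4.91 CPM at 16 hours and 0.871, 1.76 and 0.664 CPM at 5 days. The groups overlapped, and the difference of 1.62 ± 0.45 (adjusted p = 0.011) did not pass without animal 242 (1.34, adjusted p = 0.061) or with only the 2 groups in the fit (adjusted p = 0.054).

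**Figure D4:**
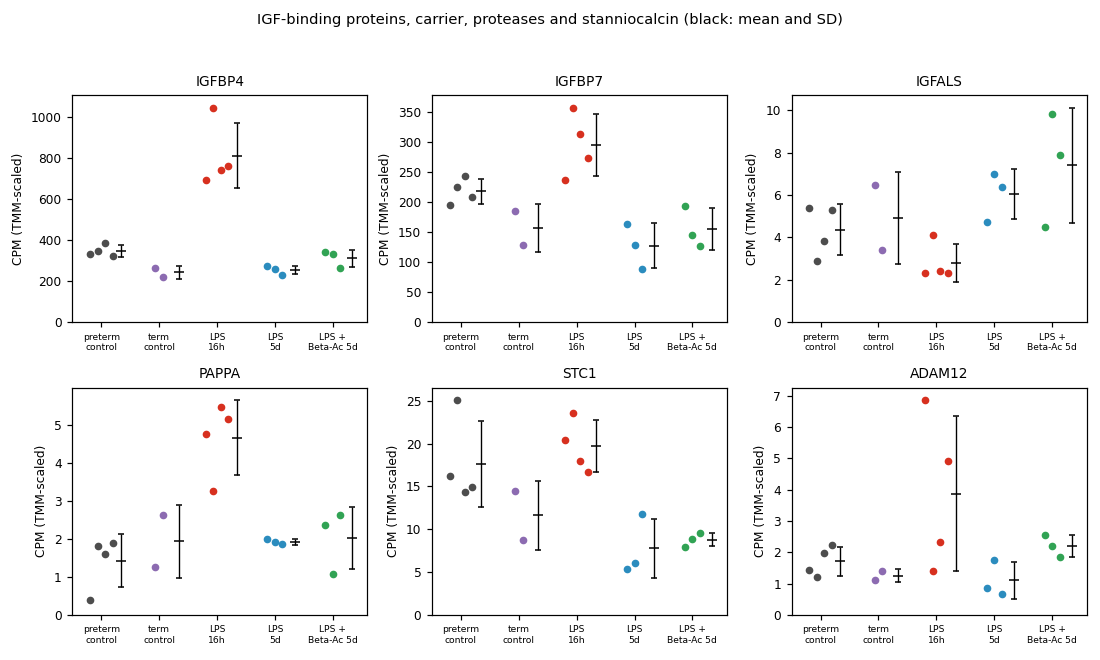
Level in CPM (y axis) of IGFBP4, IGFBP7, IGFALS, PAPPA, STC1 and ADAM12 by group (x axis), with each point 1 fetus and the black dash and bar the mean and SD. IGFBP4 and PAPPA are highest in all 4 LPS 16h fetuses, and STC1 is at most 11.8 CPM in both 5-day groups against at least 14.3 CPM in the preterm controls.

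Of 11 receptors and signalling adaptors, 0 were called in any comparison against preterm controls, and 5 passed the test at 16 hours, beside 38.3% of all genes. These 5 are named after their values were seen. SHC1, an adaptor between the receptors and the MAP kinases, rose by 0.98 ± 0.11 (adjusted p = 6.5e-06), IRS2, a docking protein of the receptors, by 0.79 ± 0.19 (adjusted p = 0.0047) and AKT1, the kinase downstream of PI3-kinase, by 0.36 ± 0.10 (adjusted p = 0.0093, and 0.15 with total-count scaling). IRS1, the other main docking protein, fell by 0.91 ± 0.165 (adjusted p = 0.00048), and PIK3R1, the regulatory subunit of PI3-kinase, by 0.64 ± 0.18 (adjusted p = 0.0099). IRS1 was thus 34.4 to 58.3 CPM at 16 hours against 65.5 to 103 CPM in the preterm controls, and IRS2 26.1 to 38.2 CPM against 16.7 to 21.4 CPM.

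At 5 days 2 of the 11 passed, and both were higher in the LPS 5d and the LPS + Beta-Ac group, where 14.7% and 17.3% of all genes passed. IRS2 rose by 0.87 ± 0.21 (adjusted p = 0.012) and 0.78 ± 0.21 (adjusted p = 0.018), and INSR, the insulin receptor, by 0.75 ± 0.21 (adjusted p = 0.026) and 0.67 ± 0.21 (adjusted p = 0.039). Term controls differed from preterm controls by 0.45 in IRS2 (adjusted p = 0.33) and 0.72 in INSR (adjusted p = 0.105). In INSR, LPS 5d and LPS + Beta-Ac differed from term controls by 0.02 and -0.06. IRS2 did not pass without animal 240 in the LPS 5d group (adjusted p = 0.057) and without 248 or 255 in the LPS + Beta-Ac group (0.093 and 0.094). INSR did not pass without animal 092 or 101 in both groups, without any 1 of the LPS 5d fetuses, and without 248 or 255, at adjusted p of 0.06 to 0.16. IGF1R, the receptor for both ligands, was 53.8 to 92.8 CPM in the preterm and LPS 16h libraries and 64.7 to 91.5 CPM in both 5-day groups and passed no test.

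Of the 3 RNA-binding paralogs, IGF2BP1 passed the test and the other two did not. It was measured at 8.58, 8.6, 9.47 and 13.4 CPM in the preterm controls and at 11.5 and 9.63 CPM in the term controls. It was 16.7, 13.2, 28.9 and 23.3 CPM in the LPS 16h group, 15.02, 20.5 and 16.6 CPM in the LPS 5d group and 14.8, 13.5 and 21.4 CPM after LPS + Beta-Ac. All exposed fetuses but animal 029 lay above the highest control, animal 209.

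IGF2BP1 rose by 0.99 ± 0.23 on the log2 scale at 16 hours (adjusted p = 0.0037), just under the 2-fold limit. It passed that limit with median-of-ratios scaling (2 of 9 genes then called), with only the 2 groups in the fit, and without animal 026, 029 or 209, and was 1.33 without the 4 libraries apart on the third component. At 5 days it rose by 0.80 ± 0.25 (adjusted p = 0.044), which did not pass under 10 of 17 alternative fits, limma-voom among them (adjusted p = 0.079, with a range of 0.022 to 0.18 over all fits). After LPS + Beta-Ac the difference was 0.72 ± 0.25 (adjusted p = 0.064, 0.031 without animal 209 and 0.013 without the 4 libraries). Term controls differed from preterm controls by 0.10 ± 0.29 (adjusted p = 0.9), while LPS 5d and LPS + Beta-Ac lay above term controls by 0.71 ± 0.30 (adjusted p = 0.4) and 0.62 ± 0.30 (adjusted p = 0.36). The groups did not overlap in either case, as was so for 30.4% and 33% of all genes tested. Of 15 proliferation markers, 15 were lower at 5 days (11 passing), 14 after LPS + Beta-Ac (8 passing) and 15 in term controls (11 passing). At 16 hours 13 were lower (3 passing). Of all genes, 14.7%, 17.3%, 3.99% and 38.3% passed in these comparisons. Of 8 myeloid markers, 8 were higher at 16 hours (6 passing), 7 at 5 days (5 passing) and 7 after LPS + Beta-Ac (7 passing). In term controls 7 were higher (2 passing). Their summed level at 5 days, 159 to 203 CPM, lay within the preterm controls' range of 97.5 to 210 CPM. The part of either marker list in the IGF2BP1 level was not tested.

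IGF2BP2, the paralog best known in metabolism, passed no test. It was 125 to 141 CPM in the preterm controls, 105 and 122 CPM in the term controls, 105 to 127 CPM at 16 hours, 117 to 131 CPM at 5 days and 99.0 to 133 CPM after LPS + Beta-Ac. Its difference at 16 hours was -0.22 ± 0.11 (adjusted p = 0.11) and passed the test only with total-count scaling (-0.43, adjusted p = 0.0045), which moved the median of all genes by -0.201 in that comparison. IGF2BP3, the paralog most tied to fetal and tumour tissue, was 23.5 to 29.8 CPM in the preterm controls and 16.2 and 22.9 CPM in the term controls, a difference of -0.49 ± 0.23 (adjusted p = 0.27). It was 16.8 to 29.1 CPM at 16 hours, 19.9 to 32.1 CPM at 5 days and 25.4 to 34.5 CPM after LPS + Beta-Ac, and the latter group lay above term controls by 0.67 ± 0.24 (adjusted p = 0.22).

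Within a library, the count ratio of IGF2BP1 to IGF2BP2 was 0.0608 to 0.107 in the preterm controls and 0.0921 and 0.0945 in the term controls. It was 0.122 to 0.227 at 16 hours, 0.125 to 0.156 at 5 days and 0.113 to 0.161 after LPS + Beta-Ac, so that every exposed fetus lay above every control. The ratio of IGF2BP1 to IGF2BP3 was 0.321 to 0.45 in the preterm controls and 0.445 to 1.09 in the exposed fetuses, with 1 term control at 0.71, and overlapped with both control groups. Both ratios were chosen after the values were seen.

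LIN28B was at the edge of detection. It had 16 counts in all, spread over 6 of 16 libraries, with at most 5 counts (0.178 CPM) in any of them. The preterm controls had 0 counts in any of the 4 libraries, which allows a level of up to 0.0309 CPM at a floor of 3 counts over the group. The LPS 16h group had 5, 2, 3 and 0 counts, the LPS + Beta-Ac group 0, 0 and 4, and the LPS 5d and term groups 1 each. At this depth no difference between groups can be read from these counts, and the limits cover counting error only.

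HMGA2, an architectural chromatin protein and the best known let-7 target, was low and rested on 17 to 52 counts a library. It was 0.958, 1.11, 1.1 and 1.2 CPM in the preterm controls and 1.03 and 1.13 CPM in the term controls. It was 0.888, 0.96, 0.862 and 0.494 CPM in the LPS 16h group, 1.89, 1.19 and 1.76 CPM in the LPS 5d group and 1.54, 0.905 and 1.43 CPM after LPS + Beta-Ac. In the LPS 16h group 3 of 4 fetuses lay below the lowest preterm control, and in the LPS 5d group 2 of 3 lay above the highest.

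Neither difference of HMGA2 from preterm controls passed the test: -0.45 ± 0.25 at 16 hours (adjusted p = 0.17) and 0.51 ± 0.27 at 5 days (adjusted p = 0.24). The difference between the time points did pass, at -0.96 ± 0.27 (adjusted p = 0.012), with no overlap. It did not pass without animal 239 (adjusted p = 0.059), and it was past 2-fold with total-count scaling, a prior count of 0.5 and limma-voom.

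Among 14 tested partners of the let-7 axis, 4 passed at 16 hours, 2 at 5 days, 3 after LPS + Beta-Ac and 2 in term controls, beside 38.3%, 14.7%, 17.3% and 3.99% of all genes. MYC, a growth regulator and let-7 target, was 81.9, 115, 78.9 and 114 CPM at 16 hours and 15.8 to 25.4 CPM in all other libraries. It rose by 2.43 ± 0.16 (adjusted p = 1.4e-08) at 16 hours and was 2.22 ± 0.17 higher there than at 5 days (adjusted p = 1.7e-07). PLAGL2, a zinc finger activator, rose by 1.01 ± 0.16 at 16 hours (adjusted p = 0.00011) and by 0.64 after LPS + Beta-Ac (adjusted p = 0.015). It differed by 0.51 at 5 days (adjusted p = 0.051), and LPS 16h exceeded LPS 5d by 0.50 (adjusted p = 0.031, not passing in 7 of 17 alternative fits). PRTG, a let-7 target of the early embryo, rose by 1.03 ± 0.36 at 16 hours (adjusted p = 0.034), at 1.57 to 2.52 CPM and lost in 7 of 18 alternative fits. PRTG differed by 1.13 at 5 days (adjusted p = 0.065, and 0.024 without the 4 libraries) and by 0.90 after LPS + Beta-Ac (adjusted p = 0.13). LPS 16h differed from LPS 5d in PRTG by -0.105 (adjusted p = 0.86).

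TRIM71, the ubiquitin ligase LIN41 and a let-7 target, was also lower at 16 hours than at 5 days. It was 1.53, 0.32, 1.44 and 0.611 CPM at 16 hours, 1.48 to 2.11 CPM in the preterm controls, 2.5 and 2.97 CPM in the term controls, 3.23 to 3.48 CPM at 5 days and 2.97 to 4.82 CPM after LPS + Beta-Ac. The fall of 0.97 ± 0.36 at 16 hours (adjusted p = 0.045) was lost under 10 of 18 alternative fits and was -0.54 without animal 029 (adjusted p = 0.15) and -0.46 without the 4 libraries (adjusted p = 0.29), and the groups overlapped. The difference of 16 hours from 5 days was -1.94 ± 0.39 (adjusted p = 0.0012).

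FIGN, a microtubule-severing ATPase and let-7 target, was 3.92 to 6.91 CPM in the preterm controls and 4.03 to 6.89 CPM at 16 hours. In the older and later groups it was higher, at 10.4 and 12.1 CPM in the term controls, 13 to 19 CPM at 5 days and 11.2 to 18.1 CPM after LPS + Beta-Ac. It rose by 1.46 ± 0.24 at 5 days (adjusted p = 0.0011) and by 1.32 ± 0.24 after LPS + Beta-Ac (adjusted p = 0.0014). The term difference was 1.02 ± 0.27 (adjusted p = 0.045), which did not pass in 10 of 16 alternative fits. Among these were the fits without any 1 of animals 092, 101, 113, 200 and 201 and without the 4 libraries (1.24). The difference of 16 hours from 5 days was -1.45 ± 0.24 (adjusted p = 0.00023). HMGA1, the paralog of HMGA2, rose by 0.53 ± 0.15 at 5 days (adjusted p = 0.03) and by 0.69 ± 0.15 after LPS + Beta-Ac (adjusted p = 0.0058). It did not reach 2-fold, its 5-day value did not pass in 6 of 17 alternative fits (adjusted p = 0.095 without the 4 libraries), and it is named after its values were seen.

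**Figure D5:**
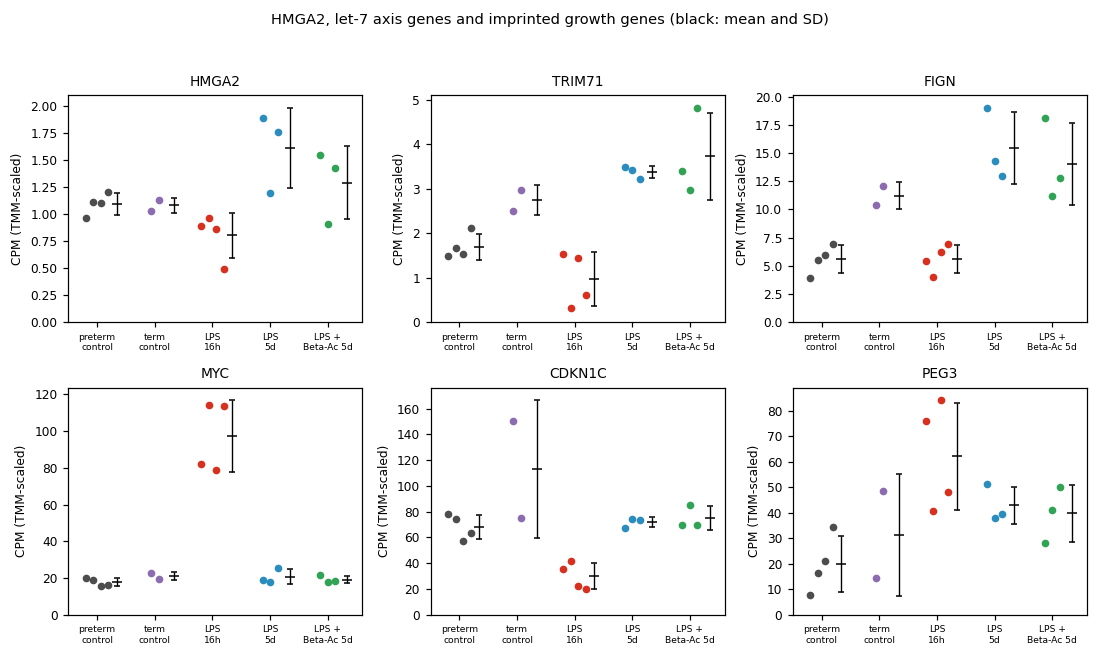
Level in CPM (y axis) of HMGA2, TRIM71, FIGN, MYC, CDKN1C and PEG3 by group (x axis), with each point 1 fetus and the black dash and bar the mean and SD. TRIM71 is at most 1.53 CPM at 16 hours and at least 2.97 CPM in both 5-day groups, and MYC is at least 78.9 CPM at 16 hours and at most 25.4 CPM elsewhere.

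Imprinted genes of fetal growth, the class to which IGF2 belongs, gave 12 tested genes together with PLAG1, which is not of that class. At 16 hours 2 passed as higher and 4 as lower, and at 5 days 2 as higher and 2 as lower. After LPS + Beta-Ac 1 passed as higher and 2 as lower, and in term controls 0 passed. Beside these, 38.3%, 14.7%, 17.3% and 3.99% of all genes passed. CDKN1C, a cell cycle inhibitor that restrains fetal growth, was 57.0 to 78.1 CPM in the preterm controls and 35.5, 41.6, 22.7 and 20.4 CPM at 16 hours. It fell by 1.23 ± 0.23 (adjusted p = 0.00065), and the difference of LPS 16h from LPS 5d was -1.32 ± 0.25 (adjusted p = 0.00076). PEG3, a paternally expressed zinc finger gene, was 7.88, 16.5, 21.2 and 34.4 CPM in the preterm controls and 75.9, 40.9, 84 and 48.1 CPM at 16 hours, a rise of 1.76 ± 0.43 (adjusted p = 0.0055).

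PHLDA2, which restrains placental growth, rose by 1.47 ± 0.49 at 16 hours (adjusted p = 0.029) from 7 to 9 counts a library to 24 to 42 counts. The call was lost with a prior count of 0.5 and without any 1 of animals 029, 038, 092, 113 and 209. PHLDA2 was also higher at 16 hours than at 5 days (2.33 ± 0.53, adjusted p = 0.0032), where it had 3 or 4 counts. LPS 5d differed from preterm controls by -0.86 (adjusted p = 0.32), and LPS + Beta-Ac from LPS 5d by -0.99, which did not pass. After LPS + Beta-Ac PHLDA2 was below the preterm controls, with 2, 1 and 0 counts. These 3 counts against 30 in the preterm controls gave a ratio of 0.125 at equal depth (95% exact interval 0.0244 to 0.401, for counting error only), and the fitted change of -1.85 ± 0.53 was called (adjusted p = 0.026). Its size depended on the prior count (-2.84 to -1.18), and it did not pass in 5 of 15 alternative fits: limma-voom (adjusted p = 0.065) and without animal 092, 101, 249 or 255 (0.053 to 0.10). PLAG1, an activator of IGF2, was 2.18, 2.96 and 3.8 CPM at 5 days and 0.218 to 1.71 CPM in the preterm controls, a rise of 1.72 ± 0.49 (adjusted p = 0.028) that was lost without animal 113, 240 or 242 and with only the 2 groups in the fit (adjusted p = 0.078). Its difference after LPS + Beta-Ac was 1.45 (adjusted p = 0.053, passing in 5 of 17 alternative fits, at 0.026 without the 4 libraries). In term controls it was 1.19 (adjusted p = 0.26). The difference of 16 hours from 5 days in PLAG1 was -1.33 ± 0.49 (adjusted p = 0.046), which did not pass under 12 of 17 alternative fits (0.11 without the 4 libraries). SLC22A18 rose by 1.02 ± 0.25 after LPS + Beta-Ac (adjusted p = 0.01), from 6.06 to 8.84 CPM in the preterm controls to 15.4 to 16.5 CPM. It also rose in the LPS 5d group, by 0.78 (adjusted p = 0.047, not passing in 10 of 17 alternative fits). The difference of LPS + Beta-Ac from LPS 5d was 0.24 and did not pass.

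For each tested gene the 3 genes with the most similar level over the 16 libraries were found by Pearson's r of log2 CPM among 13799 genes with a symbol and at least 1 CPM, as a description without a test. The libraries share groups and depth. IGFBP3 was closest to FTSJ1 (r = 0.965), WSB2 (0.959) and ANXA7 (0.959), and IGFBP5 to GAS2 (0.923), HPGD (0.867) and LRRC8D (0.857). IGF1 was closest to PLEKHG1 (0.919), PTPN11 (0.916) and SPRTN (0.903), and IGF2BP1 to MAST4 (0.875), CDCP1 (0.874) and MAL2 (0.867). HMGA2 was closest to RUFY4 (0.856), SYTL5 (0.853) and KLC3 (0.847), and IGF2BP3 to GSTCD (0.839), YAP1 (0.837) and MAML1 (0.832). IGFBP2 was closest to PDGFRL (0.812), EFNB3 (0.811) and PPP1R21 (0.81), IGF2BP2 to BCL7A (0.82), EYA1 (0.806) and MCU (0.776), and IGF2 to VCF1 (0.808), DYNLL1 (0.757) and LSM3 (0.747).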

How the data were processed

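Poly(A)-selected RNA of 16 fetal lungs was sequenced. The authors pseudo-aligned the reads with kallisto to the Mmul_10 build and deposited 1 table of estimated counts per gene, as whole numbers. The submitters' processing notes also name DESeq2. The unit was recorded as other, because the column names are bare animal numbers, so no negative binomial model was run, and limma took its place. Genes with at least 10 counts in the median library in 2 animals (0.371 CPM) and 15 counts in all were kept. Libraries were set on 1 scale by TMM (trimmed mean of M-values) factors, and values were taken as log2 CPM with a prior count of 2. One limma 3.58.1 model (R 4.3.3, trend and robust options, statmod 1.5.0) held all 16 animals and 5 group means, and p-values, two-sided, were adjusted by Benjamini-Hochberg over all genes tested. The script was tested on simulated data.

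Age, sex and batch did not enter the fit (the labels give no sex or batch). Each animal is a separate fetus. Members and lists were chosen with earlier results of these data known. Named genes are all 10 members, every list gene called in a described comparison (at most 6 per list by absolute log2 fold change), and the 3 nearest genes by correlation. Alternatives were 2 other scalings, 2 filters, prior counts of 0.5 and 5, limma-voom, limma without its options, only the groups compared, each animal left out, and, chosen after seeing the data, 4 libraries left out together.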

Additional observations from a re-analysis of the deposited data

Results flagged for a closer look

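Of 18 groups of members tested for a library far from the others, 3 held one, and chance alone gives about 1 in 20 groups. IGF1 was 9.89 CPM in preterm control animal 092, below the other 3 controls. IGFBP2 was 158 CPM in LPS 16h animal 029, above the other 3. IGFBP5 was 496 CPM in LPS 16h animal 035, below the other 3.

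The LPS 16h and LPS 5d groups differed in IGFBP3, by 2.81 on the log2 scale, and in HMGA2, by -0.96, both in the limma test of the difference. HMGA2 passed against preterm controls at neither time, and its difference did not pass without animal 239 (adjusted p = 0.059). The 2 groups also differed in depth and in age at treatment.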

How the results depend on the processing

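Of 8 member changes past the test, 123 of 139 values under the alternatives stayed past it in the same direction and 16 did not, 11 of those with 1 animal left out. The number of genes called in LPS 16h against preterm control was 2 in place of 1 with median-of-ratios scaling, with only the groups compared and without the 4 libraries apart on the third component, and 1 to 2 with single animals left out (2 without 026, 029 or 209), the second gene being IGF2BP1. In LPS 16h against LPS 5d it was 2 in place of 1 with total-count scaling, a prior count of 0.5, limma-voom and without the 4 libraries, and 1 to 2 with single animals left out (2 without 026, 029, 035 or 240), the second gene being HMGA2.

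The number with an adjusted p below 0.05 in LPS 5d against preterm control was 1 in place of 2 with total-count scaling, no filter, limma-voom, limma without its options and without the 4 libraries, 4 with only the groups compared, and 0 to 2 with single animals left out (0 without 240). In LPS + Beta-Ac against preterm control it was 3 in place of 1 with only the groups compared, 4 without the 4 libraries, and 0 to 2 with single animals left out (0 without 092, 248 or 255). In LPS 16h against LPS 5d it was 1 without animal 239, where HMGA2 did not pass. IGF1 passed between these groups in 4 of 17 alternative fits, among them without animal 029 (adjusted p = 0.0043) and without the 4 libraries (0.018). The term difference of IGFBP3 ran from -0.69 (without 200) to 0.21 (without 201), and that of IGF2BP1 from -0.030 (without term control 200) to 0.24 (without preterm control 209), both with a change of sign. The cause was not tested. No paired analysis was possible because no animal number is shared between groups. Depth limits LIN28B and HMGA2 most.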
